A study of Rattus norvegicus with 15 samples.

Results

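The genes described here are 36 antioxidant and glutathione genes of the rat, taken by symbol from the annotation of the array platform. They encode superoxide dismutases (3 genes), enzymes that remove peroxides (10), enzymes that make and recycle glutathione (5), the thioredoxin system (6), the NRF2 pathway with heme oxygenases (5) and glutathione transferases (7). Each gene was read by the probe set, a group of array probes along its transcript, with the highest mean over all 15 arrays. All 36 were measured among 14506 genes that had a probe set of their own.

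The arrays held RNA of the inferior colliculus (IC), the midbrain auditory nucleus in which audiogenic seizures start. The Wistar audiogenic rat (WAR) was selected over generations for its seizures on exposure to intense sound and came from the School of Medicine of Ribeirão Preto, and the Wistar albino controls came from Charles River Laboratories. All rats were males aged 12 weeks, with a body weight near 230 g, and both sides of the IC were used. By the sample labels, 5 arrays were of WAR rats exposed to sound (WAR S), 2 of Wistar rats exposed to sound (Wistar S), 4 of naïve WAR rats (WAR N) and 4 of naïve Wistar rats (Wistar N). Tissue of the stimulated rats was taken 60 min after the sound. The study's methods describe seizures in stimulated WAR rats and none in stimulated Wistar rats, for the animals of its RT-qPCR and immunohistochemistry. For the arrays they name rats exposed to sound, more of each strain than the labels hold, and give no seizure score. Strain, breeder and, in stimulated rats, any seizure thus cannot be told apart in these comparisons. The labels call the arrays biological replicates. The general text of the deposit describes every animal as stimulated, against the labels of the naïve arrays, which were followed here.

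Superoxide, which leaks from mitochondria and is made by oxidases, is converted by superoxide dismutases to hydrogen peroxide, which catalase, glutathione peroxidases and peroxiredoxins then remove. Glutathione peroxidases draw on reduced glutathione, and peroxiredoxins mostly on thioredoxin; both carriers are regenerated with NADPH. The transcription factor NRF2, held back by KEAP1 until cells meet oxidants or electrophiles, binds antioxidant response elements near many of these genes, and in brain this response is strong in astrocytes.

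The core of that element, TGACNNNGC, is shown here as it stands near the start of genes whose values are described below. It was searched on both strands of RefSeq promoter windows (build GRCr8) of 300 bases, 250 before and 50 after the start. Of the 36 genes, 31 had such a window, and *Sod3*, *Prdx6*, *Gsr*, *Txnip* and *Hmox1* had none. The core was found in 10 of these 31 windows (32.3%), against 3602 of 27457 windows of all genes (13.1%) and 1703 of 11951 windows of genes on the array (14.2%). In 7 of the 10 genes a match lay before the start, and in *Prdx4*, *Prdx5* and *Nfe2l2* it lay at or after it. Below, each match before the start is in capitals with 10 bases on either side, read 5′ to 3′ on the strand given, for the genes of peroxide removal, glutathione synthesis, the thioredoxin system, heme oxygenase and glutathione transfer that differ most in the comparisons or carry the classic form of the core:
*Prdx1*, chr5:135383761-135383789, minus strand: cggcggggtaTGACTCAGCgctttccctg
*Gclm*, chr2:213031953-213031981, minus strand: tggaagacaaTGACTAAGCagaaaccgca
*Txnrd1*, chr7:22755964-22755992, plus strand: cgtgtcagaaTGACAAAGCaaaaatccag
*Hmox2*, chr10:11337689-11337717, plus strand: ctggccaagcTGACACTGCcttccaagac
*Gstp1*, chr1:210769748-210769776, minus strand: tccactgtgtTGACTCAGCatccggggcg
In *Prdx1* and *Gstp1* the core also holds the letters of an AP-1 site, TGACTCA. The match lay 135 to 127 bases before the start in *Prdx1*, 172 to 164 in *Gclm*, 78 to 70 in *Txnrd1*, 95 to 87 in *Hmox2* and 61 to 53 in *Gstp1*. *Sod2* and *Gstm5* held the other matches before the start. A match describes the letters of a window and is not a measured binding site.

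The values are log2 intensities made by robust multi-array average (RMA). Stimulated and naïve arrays were taken as normalized in separate runs. In each pair of stimulated arrays 2675 to 3286 probe sets held identical values. In pairs of naïve arrays 2 to 13 did, and in pairs of 1 stimulated and 1 naïve array none did. Levels were therefore compared within each part only. The median SD within groups over all genes was 0.094 in the stimulated arrays and 0.18 in the naïve arrays, Wistar N 1 included, and the part of the identical values in this was not tested. Among the 36 genes, *Gss*, *Ggt1*, *Txnrd1* and *Txnrd2* had the same value on 4 or 5 of the 7 stimulated arrays. Markers of the tissue were bright on every array, with *Snap25* of neurons at log2 values of 12.54 to 13.43, *Mbp* of myelin at 12.52 to 12.86 and *Aqp4* of astrocytes at 12.13 to 12.77. In whole tissue, fewer cells of a type and less RNA per cell cannot be told apart.

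One naïve array stood apart from its group. On the first principal component of the naïve arrays, which held 62.8% of their variance, Wistar N 1 lay at −23.2 and the other 3 Wistar N arrays at 32.0 to 36.9, whereas the WAR N arrays lay at −22.7 to −12.7. Genes that separate the strains placed Wistar N 1 with the Wistar rats, since it was nearer to the other Wistar N arrays for 49 of the 60 genes called between WAR S and Wistar S. For example, *Prps1* was 10.60 on Wistar N 1, 10.08 to 10.33 on the other Wistar N arrays and 8.52 to 8.93 on the WAR N arrays. Of the 36 antioxidant genes, 25 were nearer on Wistar N 1 to the WAR N mean than to the mean of the other Wistar N arrays (69.4%), as were 67.3% of all genes. Summed markers of vessels differed in the same way between the arrays. The summed unlogged level of the 15 endothelial markers, all measured, was 5918 on Wistar N 1, 2662 to 2870 on the other Wistar N arrays and 4246 to 6315 on the WAR N arrays. For the 12 markers of pericytes and smooth muscle, also all measured, it was 4594, 2262 to 2418 and 4224 to 5716. Not every single marker followed these sums. *Nostrin*, an endothelial marker, was 6.69 on Wistar N 1 and 6.29 to 6.67 on the other Wistar N arrays. On the WAR N arrays it was 7.71 to 8.25. The lowest log2 value of any marker of these lists was 4.22, near the low end of the range. *Cldn5*, of endothelial junctions, lay between log2 values of 7.18 and 8.31. Naïve results are given below with all arrays and, for many of the genes named, also without Wistar N 1 or with Wistar N 1 as the sole Wistar N array. The last setting was chosen after the arrays had been seen. It leaves 1 array in its group, which is assumed to vary like the other groups, so its adjusted p values carry no spread of that group and are given as descriptions. The part of the vessel markers in the results was not tested.

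In stimulated rats, WAR S and Wistar S did not differ past the threshold in any of the 36 genes (limma, Benjamini-Hochberg adjustment over 14506 genes, adjusted p of at most 0.05), which 60 genes of all (0.414%) passed. At an unadjusted p under 0.05 there were 6 of the 36 and 994 of all genes, and with the spread estimated from the stimulated arrays alone none of the 36 passed, against 1.89% of all genes. The median log2 difference was 0.03 over the 36 and 0.01 over all genes, with 22 of the 36 above 0. The arrays of both groups did not overlap for 9 of the 36, against 20.7% of all genes. Of these, *Gpx1*, *Gsr* and *Hmox2* were higher in WAR S, and *Sod2*, *Sod3*, *Prdx1*, *Txnip*, *Keap1* and *Nqo1* were lower.

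*Sod3* encodes the superoxide dismutase that is secreted and held at the cell surface and matrix, much of it around vessels. Its log2 value was 8.89 and 9.23 on the Wistar S arrays and 7.82, 7.77, 8.19, 8.29 and 8.25 on the WAR S arrays. The highest WAR S array thus lay below the lower Wistar S array. The log2 difference was −0.99 (SE 0.29, 95% confidence interval −1.62 to −0.37), a 1.99-fold lower mean, with an adjusted p of 0.24. It had the largest size of the 36 genes in this comparison, the next being *Nqo1* at −0.45, and 40 of the 14506 genes differed by as much or more. Its call depended on how the spread was estimated. The adjusted p was 0.0532 with the stimulated arrays alone, 0.0062 with a spread for each part, 0.017 without Wistar N 1 and 0.030 without Wistar N 2, 3 and 4. The exact two-sided permutation p over the 7 arrays was 0.048, the smallest that 21 splits allow. Without Wistar S 1 the difference was −1.16, and without Wistar S 2 it was −0.82, with adjusted p values of 0.66 and 1.0, the 1 Wistar S array left being assumed to vary like the other groups.

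In naïve rats *Sod3* was 8.96, 8.02, 7.77 and 7.68 on the Wistar N arrays and 8.23, 7.62, 8.20 and 8.31 on the WAR N arrays. The groups overlapped, and the highest and the lowest value belonged to Wistar N 1 and WAR N 2. The log2 difference was −0.02 (SE 0.25, adjusted p 0.96). It was 0.26 without Wistar N 1 (adjusted p 0.25), 0.14 without WAR N 2 and −0.88 with Wistar N 1 as the sole Wistar N array (adjusted p 0.057). The difference between the strain effects of stimulated and naïve rats was −0.97 (SE 0.38, adjusted p 0.25), and it was −1.26 without Wistar N 1 (adjusted p 0.0035) and −0.12 without Wistar N 2, 3 and 4 (adjusted p 0.90).

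The intracellular superoxide dismutases had smaller differences. *Sod1*, the copper and zinc enzyme of the cytosol, was 11.44 and 11.50 on the Wistar S arrays and 11.06, 11.41, 11.42, 11.45 and 11.42 on the WAR S arrays, a log2 difference of −0.12 (SE 0.14). The groups overlapped. *Sod2*, the manganese enzyme of mitochondria, was 11.15 and 11.19 on the Wistar S arrays and 11.02, 11.01, 10.96, 10.49 and 11.02 on the WAR S arrays. All WAR S arrays lay below both Wistar S arrays, with a log2 difference of −0.27 (SE 0.22), and neither gene passed the threshold (adjusted p 1.0 for both).

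Within arrays, where a scaling of the whole array cancels, *Sod3* minus the mean of *Sod1* and *Sod2* was −2.41 and −2.12 in Wistar S and −3.44 to −2.68 in WAR S, so that the strain difference of this quantity was −0.80. Against the mean of the 7 glutathione transferases it was −1.64 and −1.21 in Wistar S and −2.91 to −2.37 in WAR S, a strain difference of −1.16. Against the mean of the other 35 genes the strain difference was −1.02. The groups did not overlap in any of these 3 quantities. In naïve arrays, all of them used, the same strain differences were −0.09, −0.38 and −0.12, but Wistar N 1 stood apart here too. On it the 3 quantities were −1.75, −1.33 and −0.39, above all WAR N arrays. On the other Wistar N arrays they were −3.46 to −3.21, −2.49 to −2.18 and −1.69 to −1.30. On the WAR N arrays they were −3.46 to −2.64, −3.05 to −2.21 and −1.83 to −1.15. *Sod3* minus *Sod1* was −2.56 and −2.27 in Wistar S and −3.64 to −3.16 in WAR S, with no overlap and a strain difference of −0.87 (−0.50 in naïve arrays). *Sod3* minus *Sod2* was −2.27 and −1.97 in Wistar S and −3.24 to −2.20 in WAR S, overlapping through WAR S 4, with a strain difference of −0.72 in stimulated and 0.32 in naïve arrays. *Sod3* minus *Sod1* was −2.12 on Wistar N 1, −3.37 to −3.05 on the other Wistar N arrays and −3.78 to −3.02 in WAR N. In the same order, *Sod3* minus *Sod2* was −1.39, −3.54 to −3.24 and −3.15 to −2.26. These are differences of log2 values between probe sets, whose absolute size depends on the probes, so only their change between groups is read.

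Markers of several cell types moved with the stimulated strain comparison. The summed level of the 14 measured astrocyte markers (of 15) was 59911 and 62245 in Wistar S and 48871 to 53219 in WAR S. That of the 5 measured red cell markers (of 10) was 3576 and 5118 against 1725 to 2120, and that of the 10 meningeal fibroblast markers was 2012 and 2153 against 1684 to 1809. Endothelial markers went the other way, with 3338 and 3485 in Wistar S and 4507 to 6263 in WAR S, as did pericyte and smooth muscle markers, with 2914 and 3111 against 4528 to 5615, and the 12 microglia and macrophage markers, with 3477 and 3607 against 3778 to 4816. The lowest log2 value of any of these markers was 4.22, near the low end of the range. The part of these markers in the *Sod3* result was not tested.

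**Figure D1:**
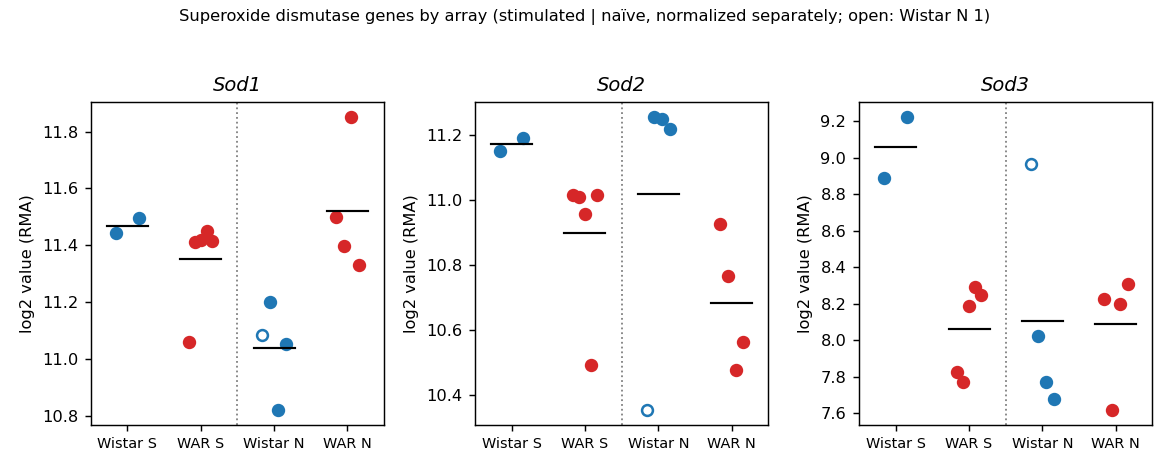
Log2 values of *Sod1*, *Sod2* and *Sod3* on each array (points) with the group mean (line), for Wistar S, WAR S, Wistar N and WAR N. Stimulated and naïve arrays were taken as normalized apart, and the open circle is Wistar N 1. The 2 Wistar S arrays of *Sod3* lie at 8.89 and 9.23, above all 5 WAR S arrays, while the naïve groups overlap for *Sod3* and are separated for *Sod1*.

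After *Sod3*, the largest stimulated differences were in genes of the NRF2 pathway, glutathione transfer, the thioredoxin system and peroxide removal. *Nqo1*, a quinone reductase that is a standard NRF2 target, was 8.29 and 8.40 in Wistar S and 7.99, 7.99, 7.96, 7.99 and 7.52 in WAR S. All WAR S arrays were lower, by a log2 difference of −0.45 (SE 0.20, adjusted p 0.69). *Keap1*, the repressor of NRF2, was also lower on all WAR S arrays (−0.34, SE 0.18, adjusted p 0.89), while *Nfe2l2*, which encodes NRF2 itself, overlapped between the groups (0.22, SE 0.14).

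*Txnip*, an inhibitor of thioredoxin that responds to glucose, was 9.79 and 9.98 in Wistar S and 9.52, 9.59, 9.34, 9.50 and 9.46 in WAR S, a log2 difference of −0.41 (SE 0.16, adjusted p 0.51). Its naïve difference was −0.36 (SE 0.13, adjusted p 0.069), with Wistar N arrays at 9.99, 9.60, 9.73 and 10.21 and WAR N arrays at 9.45, 9.83, 9.28 and 9.53. The stimulated groups were apart and the naïve groups overlapped. *Prdx1*, a cytosolic peroxiredoxin, was 11.94 and 11.97 in Wistar S and 11.65, 11.77, 11.64, 11.54 and 11.36 in WAR S (−0.36, SE 0.17, adjusted p 0.72). Its other probe set gave −0.33. In naïve rats *Prdx1* was 11.59, 11.10, 10.94 and 11.57 in Wistar N and 11.52, 11.77, 11.51 and 11.36 in WAR N, and the groups overlapped (0.24, adjusted p 0.25).

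The 7 glutathione transferases, which join glutathione to electrophiles and lipid peroxidation products, all had a mean above that of Wistar S in WAR S, with log2 differences from 0.03 to 0.43 and a median of 0.16, and none passed the threshold. Over all genes, 8054 of 14506 differences were above 0. The largest was that of *Gsta4*, which acts on the lipid peroxidation product 4-hydroxynonenal, at 8.66 and 8.46 in Wistar S and 9.14, 9.28, 8.65, 8.90 and 8.97 in WAR S. One WAR S array lay just below the higher Wistar S array (0.43, SE 0.23, adjusted p 0.90). The second probe set of *Gsta4* gave 0.17, so the size rests on the probe set.

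Among the remaining genes, *Gpx1*, the main cytosolic glutathione peroxidase, was 9.26 to 9.35 in Wistar S and 9.49 to 9.66 in WAR S (0.28, adjusted p 0.77). *Gsr*, which reduces oxidized glutathione, was 8.35 to 8.43 against 8.56 to 8.74 (0.25, adjusted p 0.61). *Hmox2*, the constitutive heme oxygenase of neurons, was 9.07 to 9.08 against 9.32 to 9.58 (0.35, adjusted p 1.0). Each was higher on every WAR S array without passing the threshold. With a spread for each part, 3 of the 36 genes passed, *Sod3* (0.0062), *Txnip* (0.021) and *Gsr* (0.038), against 4.90% of all genes. Naïve arrays enter a stimulated comparison only through the spread. The difference of *Hmox2* is thus 0.35 whichever naïve arrays are left out, and this says nothing of its stability.

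**Figure D2:**
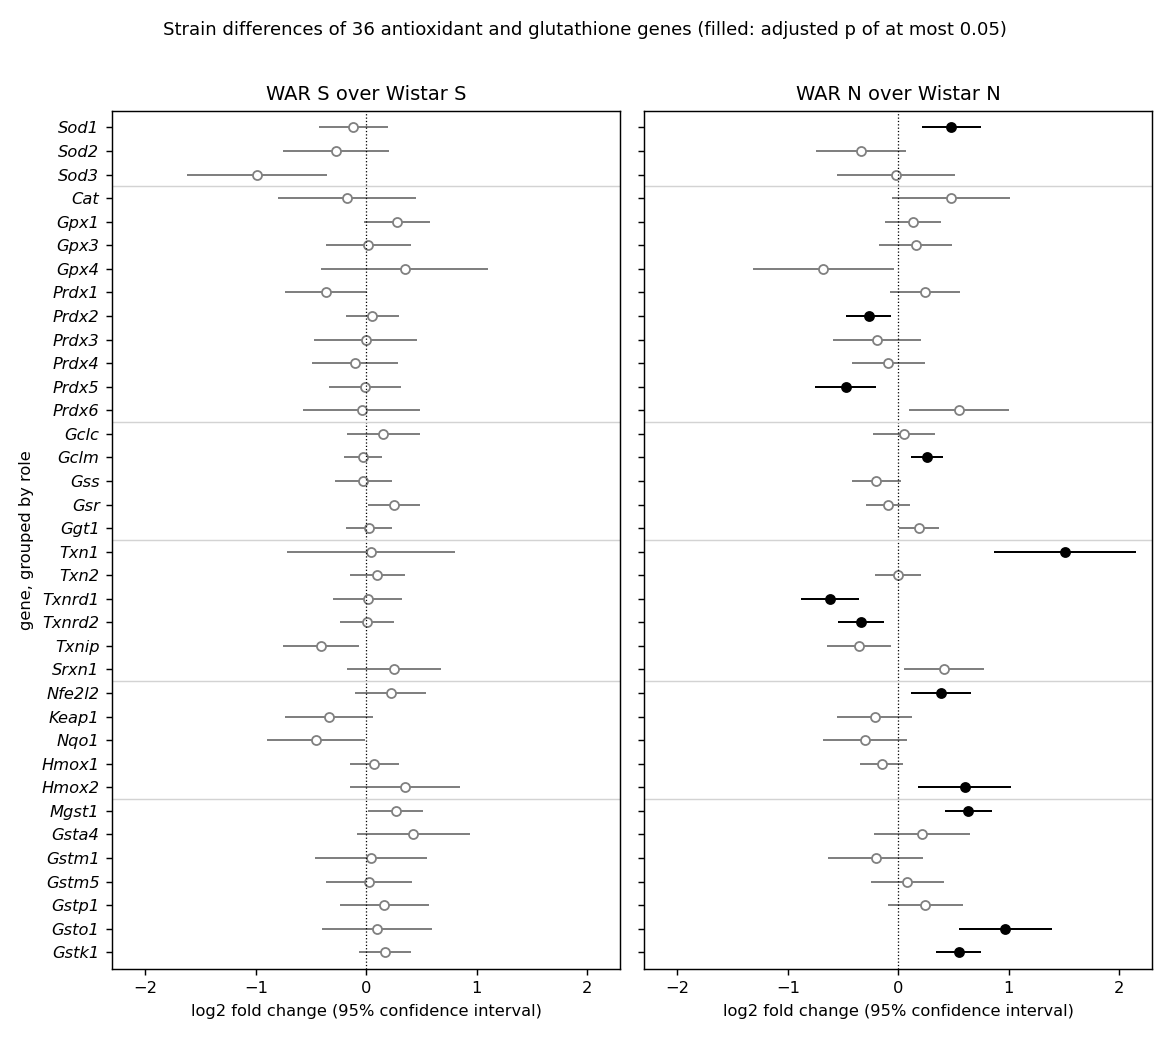
Log2 fold change of WAR over Wistar (points) with its 95% confidence interval (lines) for the 36 genes in stimulated (left) and naïve (right) rats, ordered by role; filled points have an adjusted p of at most 0.05. No stimulated point is filled and *Sod3* lies farthest from 0 at −0.99, while 12 naïve points are filled, 8 above 0 and 4 below.

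In naïve rats, 12 of the 36 genes differed between WAR N and Wistar N at an adjusted p of 0.05, against 20.9% of all genes. Higher in WAR N were *Sod1*, *Gclm*, *Txn1*, *Nfe2l2*, *Hmox2*, *Mgst1*, *Gsto1* and *Gstk1*, and lower were *Prdx2*, *Prdx5*, *Txnrd1* and *Txnrd2*. The median over the 36 was 0.07 and over all genes 0.02. With the spread of the naïve arrays alone, 5 passed (*Txn1*, *Txnrd1*, *Mgst1*, *Gsto1* and *Gstk1*), against 6.06% of all genes. Arrays of the groups did not overlap for 6 of the 36 (*Sod1*, *Gclm*, *Txn1*, *Mgst1* and *Gstk1*, higher, and *Txnrd1*, lower), against 13.4% of all genes. Without Wistar N 1 there were 21 calls, which included all 12, against 41.1% of all genes. With Wistar N 1 as the sole Wistar N array, its spread taken from the other groups, *Gstm5* alone came under the threshold (0.56, adjusted p 0.025) and none of the 12, against 11.6% of all genes. In fits that left out each of the 15 arrays in turn, *Sod1*, *Gclm*, *Txn1*, *Txnrd1*, *Mgst1*, *Gsto1* and *Gstk1* passed in all 15, *Prdx5* in 13, *Txnrd2* in 11, *Nfe2l2* in 9, *Prdx2* in 4 and *Hmox2* in 3.

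Markers of other cell types moved with the naïve strain comparison too, and Wistar N 1 lay with its own group in these. The summed level of the 12 microglia and macrophage markers was 2738 to 3121 in Wistar N, Wistar N 1 being at 3001, and 3844 to 4065 in WAR N. Of these, 4 rose in WAR N (*C1qb*, *P2ry12*, *Tmem119* and *Trem2*) and none fell, against 20.9% of all genes called. For the 14 astrocyte markers the sum was 49581 to 53361 in Wistar N, with Wistar N 1 at the top, and 43587 to 48154 in WAR N. Of these 14, 6 fell and none rose, against the same 20.9% of all genes. The groups did not overlap for either sum. The part of these markers in the naïve results was not tested.

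The thioredoxin *Txn1* and its cytosolic reductase *Txnrd1* differed in opposite directions. *Txn1*, the cytosolic thioredoxin, had the largest naïve difference of the 36 genes. It was 12.66, 11.00, 10.66 and 11.18 on the Wistar N arrays and 12.98, 12.79, 12.93 and 12.82 on the WAR N arrays. The groups did not overlap, but Wistar N 1 lay within 0.22 of the WAR N mean while the others lay far below. The log2 difference was 1.51 (SE 0.30, adjusted p 0.0038), a 2.84-fold higher mean. It was 1.93 without Wistar N 1 and 0.22 with that array alone (adjusted p 0.22). *Txn1* was also the only one of the 36 to reach a fold change of 2 in naïve rats.

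*Txnrd1*, the cytosolic thioredoxin reductase, was 7.30, 7.74, 7.91 and 7.99 on the Wistar N arrays and 6.94, 7.25, 7.12 and 7.15 on the WAR N arrays. It was lower on every WAR N array, by a log2 difference of −0.62 (SE 0.12, adjusted p 0.0036), −0.76 without Wistar N 1 and −0.18 with it alone. *Txnrd2*, the mitochondrial reductase, was 7.68, 7.95, 7.75 and 7.92 against 7.25, 7.41, 7.72 and 7.58 (−0.33, SE 0.09, adjusted p 0.021), and the groups overlapped through 1 WAR N array. Without Wistar N 1 the difference of *Txnrd2* was −0.38, with it alone −0.19. The *Txnrd2* call was lost without Wistar N 2, Wistar N 4, WAR N 1 or WAR N 2 (adjusted p up to 0.065). In stimulated rats, where each reductase had the same value on 4 of 7 arrays, both reductases had differences of 0.01, and *Txn1* 0.04. *Txn2*, the mitochondrial thioredoxin, differed by −0.0047 in naïve rats, and *Srxn1*, which restores overoxidized peroxiredoxins, by 0.41 (SE 0.16, adjusted p 0.089).

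Of the glutathione transferases, 3 of 7 rose in WAR N, against 20.9% of all genes called, and the same 3 passed with the naïve arrays alone. *Gsto1*, an omega-class transferase with thioltransferase activity, was 11.52, 10.56, 10.40 and 10.46 on the Wistar N arrays and 11.88, 11.49, 11.65 and 11.79 on the WAR N arrays, a log2 difference of 0.97 (SE 0.19, adjusted p 0.0040). Only Wistar N 1 overlapped the WAR N arrays, and the difference was 1.23 without it and 0.19 with it alone. *Mgst1*, a microsomal transferase that also reduces lipid peroxides, was 9.82, 9.69, 9.60 and 9.56 against 10.30, 10.43, 10.26 and 10.21.

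All WAR N arrays of *Mgst1* were above all Wistar N arrays, Wistar N 1 included (0.63, SE 0.096, adjusted p 0.0011). It was 0.68 without Wistar N 1 and 0.48 with it alone, where its adjusted p was 0.057. *Gstk1*, the transferase of mitochondria and peroxisomes, was 9.56, 9.30, 9.29 and 9.30 against 9.95, 9.93, 9.92 and 9.83 (0.55, SE 0.089, adjusted p 0.0016). The groups did not overlap, and the difference was 0.61 without Wistar N 1 and 0.34 with it alone. *Gsta4*, with naïve values of 8.09, 8.87, 8.25 and 8.58 in Wistar N and 8.64, 9.20, 8.36 and 8.45 in WAR N, did not pass (0.22, SE 0.20). The other 3 transferases, *Gstm1*, *Gstm5* and *Gstp1*, had differences of −0.20 to 0.25 and did not pass.

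*Sod1* was 11.08, 11.20, 10.82 and 11.05 on the Wistar N arrays and 11.50, 11.40, 11.85 and 11.33 on the WAR N arrays, and the groups did not overlap. The log2 difference was 0.48 (SE 0.12, adjusted p 0.013), and it was nearly the same without Wistar N 1 (0.50) and with it alone (0.44, adjusted p 0.16). With the naïve arrays alone the adjusted p was 0.065. *Sod2* was 10.35, 11.26, 11.25 and 11.22 against 10.93, 10.77, 10.48 and 10.56, and the other 3 Wistar N arrays lay above and Wistar N 1 below all WAR N arrays. Its difference of −0.34 (SE 0.19, adjusted p 0.22) was −0.56 without Wistar N 1 (adjusted p 0.0029) and 0.33 with it alone.

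Of the 10 genes for peroxide removal, 2 fell in WAR N and none rose, where 20.9% of all genes were called in either direction, and neither passed with the naïve arrays alone. *Prdx5*, a peroxiredoxin of mitochondria, peroxisomes and cytosol, was 9.46, 10.17, 9.89 and 10.17 on the Wistar N arrays and 9.30, 9.45, 9.46 and 9.58 on the WAR N arrays. Wistar N 1 lay among the WAR N arrays, and the log2 difference of −0.48 (SE 0.12, adjusted p 0.016) was −0.63 without it and −0.01 with it alone. The *Prdx5* call was lost without Wistar N 2 or WAR N 1 (adjusted p up to 0.053). *Prdx2*, the abundant peroxiredoxin of neurons and red cells, was 10.71, 10.91, 10.78 and 10.97 against 10.43, 10.60, 10.53 and 10.72, and 1 WAR N array overlapped. Its difference was −0.27 (SE 0.09, adjusted p 0.048), −0.31 without Wistar N 1 and −0.14 with it alone. Its call was lost in 11 of the 15 fits with 1 array left out (adjusted p up to 0.13) and was kept without Wistar N 1, WAR N 4, WAR S 3 or WAR S 5.

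*Gpx4*, the peroxidase that acts on lipid peroxides in membranes, had the third largest naïve difference without passing the threshold. It was 8.66, 10.13, 9.91 and 10.31 on the Wistar N arrays and 8.61, 8.88, 9.54 and 9.27 on the WAR N arrays (−0.68, SE 0.29, adjusted p 0.12). The other 3 Wistar N arrays were above all WAR N arrays and Wistar N 1 was near the lowest. The difference was −1.04 without Wistar N 1 (adjusted p 5.1e-04) and 0.41 with it alone. In stimulated rats it was 8.79 and 8.58 in Wistar S and 8.89, 9.05, 9.25, 9.22 and 8.74 in WAR S (0.35, SE 0.35). *Cat*, catalase, and *Prdx6*, which reduces phospholipid peroxides, had naïve differences of 0.48 and 0.55 that did not pass (adjusted p 0.18 and 0.072), and both passed without Wistar N 1 (6.2e-04 and 0.0032). With Wistar N 1 alone *Cat* was at −0.46 and *Prdx6* at −0.04. *Gpx1*, *Gpx3*, *Prdx1*, *Prdx3* and *Prdx4* had differences of −0.19 to 0.24, with adjusted p values of 0.25 to 0.72.

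*Gclm*, the regulatory subunit of glutamate-cysteine ligase, the rate-limiting enzyme of glutathione synthesis, was 8.82, 8.74, 8.73 and 8.60 on the Wistar N arrays and 8.92, 9.08, 8.97 and 8.96 on the WAR N arrays. All WAR N arrays were higher, by a log2 difference of 0.26 (SE 0.065, adjusted p 0.013), 0.29 without Wistar N 1 and 0.16 with it alone. The catalytic subunit *Gclc* differed by 0.05, glutathione synthetase *Gss* by −0.20, *Gsr* by −0.09 and *Ggt1*, which breaks down extracellular glutathione, by 0.19, and none of these passed. *Nfe2l2* was 9.12, 9.02, 8.74 and 8.66 against 9.13, 9.43, 9.08 and 9.42, and 1 WAR N array lay just below Wistar N 1. Its difference of 0.38 (SE 0.12, adjusted p 0.038) was 0.46 without Wistar N 1 and 0.15 with it alone. The *Nfe2l2* call was lost without Wistar N 3, Wistar N 4, WAR N 2, WAR N 4, WAR S 1 or WAR S 2 (adjusted p up to 0.11).

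*Hmox2* was 9.496, 8.23, 8.46 and 8.80 on the Wistar N arrays and 9.48, 9.29, 9.32 and 9.31 on the WAR N arrays, with Wistar N 1 above all of them. Its difference of 0.60 (SE 0.19, adjusted p 0.039) was 0.85 without Wistar N 1 and −0.15 with it alone, and its call was lost in 12 of the 15 fits with 1 array left out (adjusted p up to 0.12), being kept without Wistar N 1, WAR S 3 or WAR S 4. The inducible *Hmox1* differed by −0.15 (adjusted p 0.23). *Nqo1* was 7.63, 7.80, 7.46 and 8.27 against 7.29, 7.70, 7.21 and 7.75, and the groups overlapped (−0.30, SE 0.17, adjusted p 0.24). *Keap1* differed by −0.22 (adjusted p 0.35), by −0.41 without Wistar N 1 (adjusted p 0.0030) and by 0.37 with it alone.

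**Figure D3:**
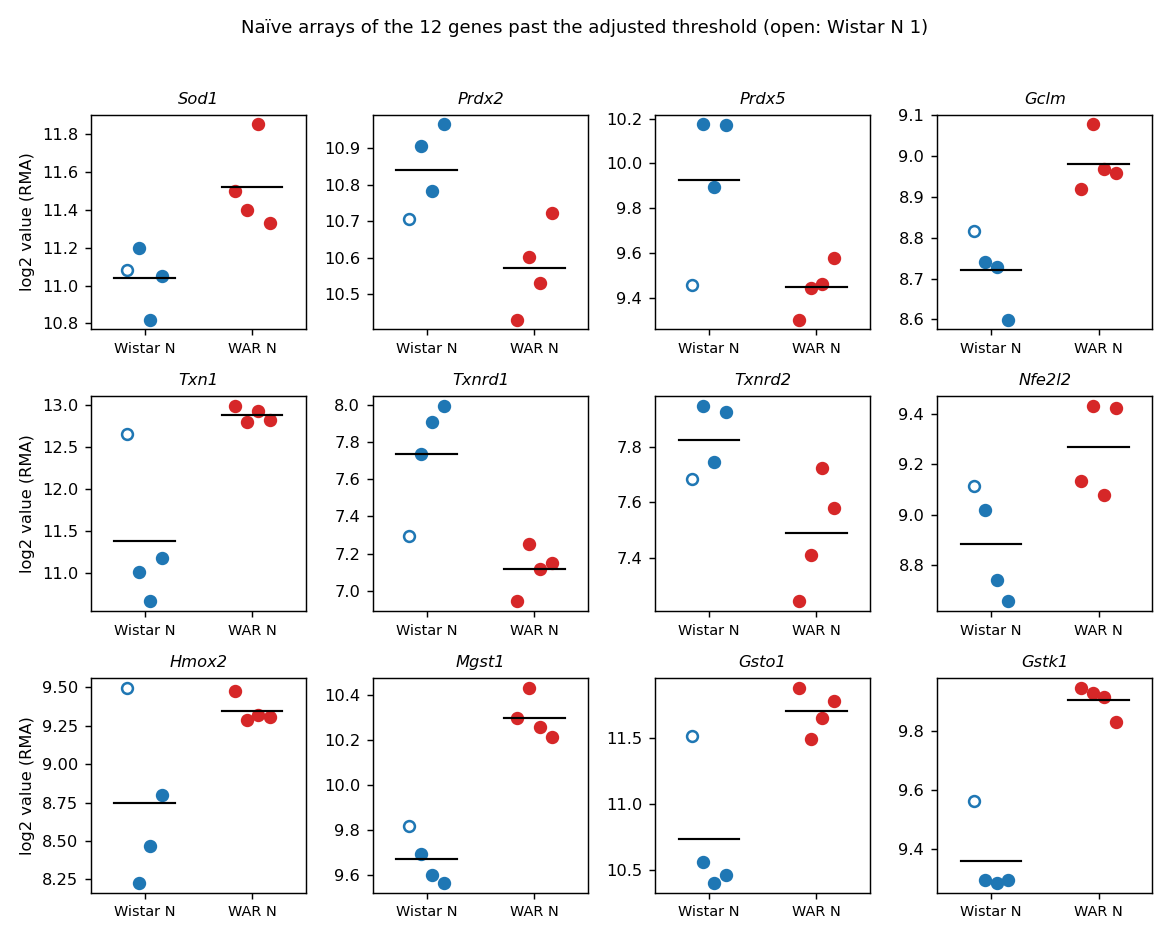
Log2 values on the 4 Wistar N and 4 WAR N arrays (points, open for Wistar N 1) with the group mean (line) for the 12 genes with an adjusted p of at most 0.05; each panel has its own axis. Wistar N 1 lies near the WAR N arrays for *Txn1*, *Gsto1*, *Hmox2* and *Prdx5*, and with the other Wistar N arrays for *Sod1*, *Gclm*, *Txnrd2* and *Mgst1*.

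**Figure D4:**
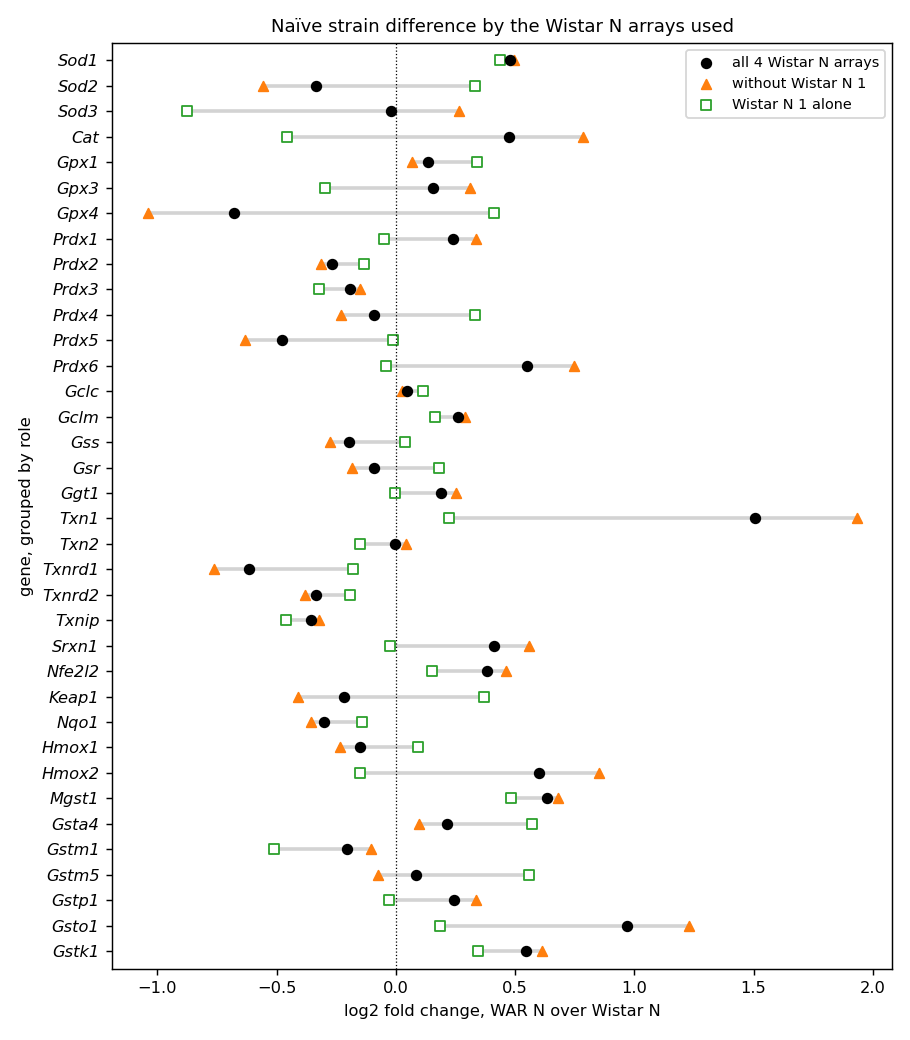
Log2 fold change of WAR N over Wistar N for the 36 genes with all 4 Wistar N arrays (circles), without Wistar N 1 (triangles) and with Wistar N 1 as the sole Wistar N array (squares). *Sod1*, *Gclm*, *Txn1*, *Mgst1*, *Gsto1* and *Gstk1* stay at 0.16 or more in all 3, and *Txnrd1*, *Txnrd2* and *Txnip* at −0.18 or less. *Txn1* still goes from 1.93 to 0.22 and *Gsto1* from 1.23 to 0.19. *Gpx4* goes from −1.04 to 0.41 and *Sod3* from 0.26 to −0.88.

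None of the 36 genes passed the threshold for a difference between the stimulated and the naïve strain effects, where 0.103% of all genes did, and 14 of the 36 and 2171 of all genes had an unadjusted p under 0.05. The effect of *Txn1* was 1.46 lower in stimulated than in naïve rats (log2 difference −1.46, SE 0.46, adjusted p 0.17). That of *Txnrd1*, which had the same value on 4 of 7 stimulated arrays, was 0.63 higher (SE 0.18, adjusted p 0.15). That of *Sod1* differed by −0.60 (SE 0.19, adjusted p 0.17). Without Wistar N 1, 14 passed, against 20.4% of all genes. They were *Sod1*, *Sod3*, *Cat*, *Gpx4*, *Prdx1*, *Prdx5*, *Prdx6*, *Gclm*, *Gsr*, *Txn1*, *Txnrd1*, *Hmox2*, *Gsto1* and *Gstk1*. Without Wistar N 2, 3 and 4, where the 1 Wistar N array left is assumed to vary like the other groups, only *Keap1* came under the threshold (−0.70, adjusted p 0.043), against 3.66% of all genes.

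Further genes of the same pathways were taken from lists by function and described by counts. Among 14 other glutathione transferases measured (of 23 listed), 3 rose in WAR N and none fell, against 20.9% of all genes called, and none of the 14 passed with the naïve arrays alone. *Gstt1* and *Gstt2*, theta-class transferases, had log2 differences of 0.38 (adjusted p 0.030) and 0.69 (adjusted p 0.031), and *Ptges*, a prostaglandin E synthase, of 0.34 (adjusted p 0.038). All 3 were brightest in Wistar N on Wistar N 1, with which alone *Gstt1* was at 0.12, *Gstt2* at −0.19 and *Ptges* at 0.09. The *Gstt1* call was lost without any 1 of Wistar N 2, 3 or 4 or WAR N 2, 3 or 4 (adjusted p up to 0.093), and that of *Gstt2* without any 1 of Wistar N 2, 3 or 4 or any WAR N array (up to 0.097). That of *Ptges* was lost in 10 of the 15 fits with 1 array left out (up to 0.12) and was kept without Wistar N 1, WAR N 1 or WAR S 3, 4 or 5. The median of the list was 0.08, against 0.02 over all genes. None passed in stimulated rats with all arrays, while *Gstcd*, named after its values were seen, was higher in WAR S and passed with the stimulated arrays alone, without Wistar N 1 and without Wistar N 2, 3 and 4, where 1.89%, 1.80% and 1.90% of all genes passed.

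Among 27 other enzymes of peroxide, thiol and methionine repair (of 31), 7 rose and 1 fell in WAR N, against 20.9% of all genes called. With the naïve arrays alone only *Msrb1* passed (adjusted p 0.034). *Msrb1*, a methionine sulfoxide reductase, was 9.01 to 9.78 in Wistar N and 9.99 to 10.08 in WAR N (0.71, adjusted p 0.0018), and the difference was 0.27 with Wistar N 1 alone (adjusted p 0.060). *Pon2*, a lactonase of mitochondria and endoplasmic reticulum, differed by 0.72 (adjusted p 0.0061; 0.29 with Wistar N 1 alone) and *Glrx*, a glutaredoxin that removes glutathione from proteins, by 0.61 (adjusted p 0.024; −0.11 with Wistar N 1 alone). *Park7*, the oxidant sensor DJ-1, fell by 0.56 (adjusted p 0.024; −0.37 with Wistar N 1 alone). With the naïve arrays alone the adjusted p was 0.052 for *Pon2*, 0.12 for *Glrx* and 0.079 for *Park7*. The *Glrx* call was lost without Wistar N 2, 3 or 4 or WAR N 1 (up to 0.072), and that of *Park7* without Wistar N 2, 3 or 4 or WAR N 3 or 4 (up to 0.078). In stimulated rats none of the 27 passed with all arrays. *Sephs2*, a selenophosphate synthetase named after its values were seen, was higher in WAR S and passed with the stimulated arrays alone and without Wistar N 1. In these settings 1.89% and 1.80% of all genes passed.

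Of the 20 genes measured (of 21) for glutathione precursors, breakdown and export, *Chac2*, which degrades glutathione in the cytosol, was called in both comparisons. It was 4.66 to 4.73 in Wistar S and 5.04 to 5.15 in WAR S, and 4.15 to 4.27 in Wistar N against 4.57 to 4.66 in WAR N, with no overlap in either. The log2 difference was 0.38 (SE 0.063, adjusted p 0.017) in stimulated and 0.41 (SE 0.053, adjusted p 4.8e-04) in naïve rats. It passed with the compared groups alone (0.017 and 0.025) and without Wistar N 1 (0.0054 and 2.6e-05). The stimulated call was lost without Wistar S 1 (0.25) or Wistar S 2 (0.28), again with 1 Wistar S array left, with the replicate number as a block (0.17) and with the first label set alone (0.16), and the naïve call with the first label set alone (0.058). By its mean over all arrays, *Chac2* lay at percentile 5.9 of the genes, near the low end of the range. *Abcc4*, an exporter of glutathione conjugates, rose in WAR N (0.39, adjusted p 0.029; 0.16 with Wistar N 1 alone), and *Cbs* and *Gcat*, enzymes of cysteine synthesis and glycine metabolism, fell (−0.32 and −0.38, adjusted p 0.024 and 0.014; −0.37 and −0.22 with Wistar N 1 alone). These and *Chac2* were 4 calls among 20 genes, against 20.9% of all genes, and only *Chac2* passed with the naïve arrays alone (0.14 for *Abcc4*, 0.066 for *Cbs* and 0.094 for *Gcat*). The *Abcc4* call was lost without Wistar N 3 or 4 or WAR N 1, 3 or 4 (up to 0.085), and that of *Cbs* without Wistar N 4 or WAR N 1, 2 or 3 (up to 0.071). In stimulated rats *Abcc4* passed with the stimulated arrays alone, where 1.89% of all genes did, and not with all arrays. It had 3 probe sets, and the values given are those of the brightest only.

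Of 31 NRF2 partners and NADPH suppliers (of 35), 3 rose and 6 fell in WAR N, against 20.9% of all genes called. *Nnt*, the mitochondrial transhydrogenase that makes NADPH, was 8.95 to 9.55 in Wistar N and 8.64 to 8.82 in WAR N (−0.66, adjusted p 0.0028; −0.23 with Wistar N 1 alone), and 9.18 to 9.26 against 8.64 to 9.01 in stimulated rats (−0.34, adjusted p 0.61). *Blvra*, which reduces biliverdin, fell by 0.96 (adjusted p 0.0062; −0.15 with Wistar N 1 alone), and *Tkt*, the transketolase of the pentose phosphate pathway, by 0.42 (adjusted p 0.0073; −0.31 with Wistar N 1 alone). *Sqstm1*, the adaptor p62 that binds KEAP1, fell by 0.46 (adjusted p 0.0077), and its difference was −0.67 with Wistar N 1 alone. With the naïve arrays alone *Nnt* was the only gene of the list to pass (adjusted p 0.034), and *Blvra* (0.052), *Tkt* (0.067) and *Sqstm1* (0.063) did not. In stimulated rats none of the 31 passed with all arrays. *Nfe2l1*, an NRF2 relative named after its values were seen, was lower in WAR S and passed with the stimulated arrays alone and without Wistar N 1. In these settings 1.89% and 1.80% of all genes passed. *Bach1*, a repressor at NRF2 sites also named after its values were seen, was higher and passed in the first of these only.

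Of 14 iron and metal genes (of 15), 3 rose and 2 fell in WAR N, against 20.9% of all genes called, and the median was 0.14. The metallothioneins, which bind zinc and copper and scavenge radicals, had the largest differences of all these lists. *Mt1*, *Mt2A* and *Fth1* each had 2 probe sets, and the values given are those of the brightest only. *Mt2A* was 10.53 to 12.76 in Wistar N, with Wistar N 1 at the top, and 13.06 to 13.22 in WAR N (1.996, adjusted p 0.0026), and the difference was 0.41 with Wistar N 1 alone (adjusted p 0.13). *Mt1* was 9.11 to 10.42 against 10.54 to 11.62 (1.30, adjusted p 0.0075), and the difference was 0.61 with Wistar N 1 alone. In stimulated rats *Mt1* was 9.35 and 10.03 against 10.77 to 11.82, a log2 difference of 1.69 with an adjusted p of 0.0504, which was 0.0100 without Wistar N 1. *Fth1*, ferritin heavy chain, rose by 0.42 (adjusted p 0.019; 0.40 with Wistar N 1 alone) and *Aco1*, the iron regulatory protein, fell by 0.69 (adjusted p 0.0027; −0.35 with Wistar N 1 alone). With the naïve arrays alone *Mt2A* (0.036), *Mt1* (0.038) and *Aco1* (0.038) passed and *Fth1* did not (0.085), and the *Fth1* call was lost without Wistar N 3 or WAR N 4 too (up to 0.058).

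Of 22 sources of superoxide and hydrogen peroxide (of 24), 1 rose and 1 fell in WAR N, against 20.9% of all genes called. *Nos1*, the neuronal nitric oxide synthase, was 8.90 to 9.45 in Wistar N and 7.52 to 8.63 in WAR N (−0.92, adjusted p 0.0064), and −0.81 with Wistar N 1 alone (adjusted p 0.13). *Xdh*, xanthine dehydrogenase, rose by 0.78 (adjusted p 0.019; −0.01 with Wistar N 1 alone). With the naïve arrays alone *Nos1* passed (0.049) and *Xdh* did not (0.096), and the *Xdh* call was lost without Wistar N 3 or 4 or WAR N 4 (up to 0.066). None of the 22 passed in stimulated rats.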

How the data were processed

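The samples were 15 IC arrays (Rat Gene 1.0 ST), whose groups follow the sample labels. The deposited values are log2 intensities that the authors made with RMA, which subtracts background, brings the arrays to 1 distribution and sums up each probe set. Neither its version nor the genome build is given in the sources used here. Every array column was used (0 left out). Of 29214 probe sets, 15310 carried 1 gene symbol; those with several (323) or none (13581) were not tested.

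Group means were compared with limma 3.58.1 under R 4.3.3 on all 15 arrays, with p values adjusted by Benjamini-Hochberg across 14506 genes (threshold 0.05), after a test on simulated data. Pooling the 4 groups widens the errors of the stimulated comparison and narrows those of the naïve one. Single values also had an exact two-sided permutation test. Stimulated arrays were not compared with naïve arrays of their strain. Signal over background was not analysed here, and precision is limited by how few arrays there are.

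The genes and lists were chosen with earlier results of these data known. By rule, array values are given for genes past the threshold, the 3 superoxide dismutases and the 5 largest differences per comparison, and up to 4 called genes are named per pathway list. Alternatives were the compared groups alone, a spread per part, the replicate number as a block, the label set (the style of running number in the sample descriptions) as a block or alone, eBayes with trend and robust, cyclic loess, a filter on low genes, all probe sets, a fold change of 2 with an unadjusted p of 0.05, and each array left out. The second label set held Wistar N 2 and 3, WAR N 3 and 4 and WAR S 3 and 4. All other arrays were of the first, both Wistar S arrays among them, so the stimulated strain comparison was unbalanced for the label set. Promoters came from RefSeq. The SAM test of the study's methods, the hamster data, RT-qPCR and immunohistochemistry are not used here.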

Additional observations from a re-analysis of the deposited data

Results flagged for a closer look

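Over the 108 sets of 4 or 5 arrays that the 36 genes form, 16 held 1 array far from the others of its group by Dixon's ratio, where chance alone gives about 5.4. Of these, 5 were on Wistar N 1. They were *Sod2* at 10.35 (others 11.22 to 11.26), *Gsr* at 8.28 (8.64 to 8.66), *Gstm1* at 12.27 (11.85 to 11.89), *Gsto1* at 11.52 (10.40 to 10.56) and *Gstk1* at 9.56 (9.29 to 9.30).

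WAR S 4 was flagged for 5 genes, *Sod2* at 10.49 (others 10.96 to 11.02), *Gss* at 7.808, whose other 4 arrays shared the close value of 7.813, *Txn2* at 10.24 (10.01 to 10.06), *Nfe2l2* at 9.65 (9.28 to 9.37) and *Gstk1* at 10.24 (9.91 to 9.99). On other WAR S arrays, *Sod1* was 11.06 on WAR S 1 (others 11.41 to 11.45), *Txnrd1* was 7.55 on WAR S 2 (7.45 to 7.47), *Ggt1* was 6.73 on WAR S 3 (6.63 to 6.65) and *Nqo1* was 7.52 on WAR S 5 (7.96 to 7.99). In WAR N, *Sod3* was 7.62 on WAR N 2 (8.20 to 8.31) and *Hmox2* was 9.48 on WAR N 1 (9.29 to 9.32). Identical values on several stimulated arrays enter the ratios of *Gss*, *Ggt1* and *Txnrd1*.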

How the results depend on the processing

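Of 36 genes, 12 were called between WAR N and Wistar N. This stood against 20.9% of all genes. The count was 5 with the compared groups alone (6.06% of all genes), 6 with a spread for each part (9.35%) and 0 with the first label set alone (217 of 14506 genes). With the second label set alone it was 13 (26.0%), of which 7 were among the 12. By a fold change of 2 with an unadjusted p of 0.05 it was 1, *Txn1*, and no share of all genes is given to set beside this. With each array left out it was 8 to 21. The 8 came without WAR N 1 (14.6%) or Wistar N 4 (15.9%), and the 21 without Wistar N 1 (41.1%). With Wistar N 1 as the sole Wistar N array, assumed to vary like the other groups, it was 1 (11.6%). Between WAR S and Wistar S, where none was called, it was 3 with a spread for each part (4.90% of all genes). With each array left out it was 0 to 1, with 1 without Wistar N 1 (1.80%). For the difference between strain effects, also none at first, it was 0 to 14 with each array left out, 14 being without Wistar N 1 (20.4%). It was 2 by the fold change of 2, *Txn1* and *Gpx4*, again with no share of all genes given. The cause was not tested.

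Whether the replicate numbers of the labels pair the arrays was not settled. Deviations from the group means correlated at −0.31 to 0.06 in same-numbered WAR and Wistar arrays, and at −0.35 to 0.39 in differently numbered ones. With 2 Wistar S arrays the deviations mirror each other, so the stimulated arrays cannot show a pairing. With the replicate number as a block, 11 of the 36 genes were called in naïve rats, *Nfe2l2* being lost, against 17.2% of all genes. None of the 36 was called in stimulated rats, against 0.110% of all genes.

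For 44 results of named genes under all alternatives, 915 of 1134 values kept direction and side of the threshold, 201 lost it, 8 gained it and 10 reversed. Naïve differences reversed with Wistar N 1 as the sole Wistar N array for *Gpx4* (0.41), *Hmox2* (−0.15), *Sod2* (0.33), *Gstt2* (−0.19), *Glrx* (−0.11) and *Xdh* (−0.010), with the first label set alone for *Sod2* (0.061), and for *Sod3* without Wistar N 1 (0.26), without WAR N 2 (0.14), where the fits with each array left out ranged from −0.16 to 0.26, and with the second label set alone (0.36). The use of the second label set alone and of Wistar N 1 alone was chosen after seeing the data.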
